A study of Homo sapiens with 6 samples.

Results

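PHGDH, PSAT1, PSPH, SHMT1, SHMT2, MTHFD1, MTHFD2, MTHFD1L and ALDH1L2 encode enzymes that make serine from glucose carbon and pass its side-chain carbon to folate. These 9 genes were taken by symbol from the 42495 gene rows of the expression table, and all 9 were found and passed the filter on low values. Cells of Panc-1, a human line established from a pancreatic carcinoma, had been cultured for 72 h in medium conditioned by cancer-associated fibroblasts (CAFs). The CAF-CM came either from CAFs of a platinum-sensitive patient (CAFS-CM) or from CAFs of a platinum-resistant patient (CAFR-CM), with 3 libraries per group. The labels name no other treatment, each group drew its medium from a single CAF line, 1 per group, and no library of Panc-1 in plain medium was analysed here, so each difference is between the 2 media. The p-values therefore measure the spread between these libraries and not between CAF lines.

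Serine is drawn off glycolysis in 3 steps, in which PHGDH oxidises phosphoglycerate, PSAT1 adds the amino group from glutamate and PSPH removes the phosphate. A serine hydroxymethyltransferase then moves the side-chain carbon of serine onto tetrahydrofolate and leaves glycine. This reaction and the redox steps that follow exist both in the cytosol (SHMT1 and the trifunctional MTHFD1) and in the mitochondria (SHMT2, MTHFD2, MTHFD1L and ALDH1L2), and mitochondrial formate feeds the cytosolic arm, which supplies carbon for purines, thymidylate and methionine. The transcription factor ATF4 is known to raise the genes of serine synthesis and of the mitochondrial arm when amino acids are short, and proliferating tumour cells often show high levels of MTHFD2.

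Among the 9 members, the 4 mitochondrial and the 2 cytosolic folate genes moved in opposite directions. The serine synthesis genes, whose enzymes are cytosolic too, rose. All 3 serine synthesis genes and all 4 mitochondrial folate genes were higher after CAFR-CM, and both cytosolic folate genes were lower, at an adjusted p under 0.05 (limma on log2(FPKM + 1), Benjamini-Hochberg adjustment over all 23608 genes tested). FPKM are fragments per kilobase of transcript and per fixed number of mapped fragments, so levels of different genes are compared per length. Of all genes tested, 26.2% were called by this rule, 15.1% as higher and 11.1% as lower after CAFR-CM (3560 and 2626 genes, or 2690 and 3979 genes with median-of-ratios factors). In all 9 members no library of one group reached the range of the other, which held for 43.2% of the genes tested (26.4% higher and 16.8% lower). The median log2 fold change was 0.88 for the serine synthesis genes, 0.56 for the mitochondrial folate genes and -0.28 for the cytosolic folate genes, beside 0.06 over all genes tested. In bulk RNA, fewer cells of a type and less RNA per cell cannot be told apart. Among the 14820 genes with a mean of at least 1 FPKM, 36.7% were called. The call of SHMT1 had the highest adjusted p and was lost when any 1 of the 6 libraries was left out. The other 8 genes kept their calls in every alternative that tested them.

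**Figure D1:**
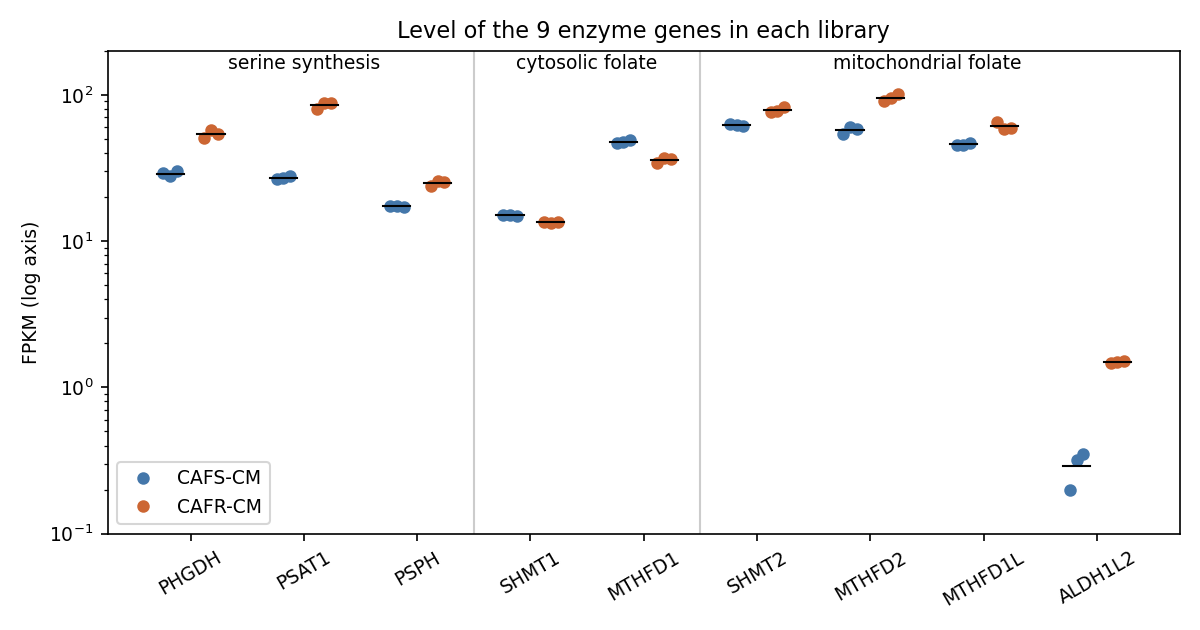
FPKM on a log axis of each of the 9 genes in every library, 3 CAFS-CM (blue) and 3 CAFR-CM (orange) points per gene, with black lines at the group means. The orange points lie above the blue ones for the 3 serine synthesis and the 4 mitochondrial folate genes and below them for SHMT1 and MTHFD1.

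The summed FPKM per library was 660604 to 691568 in the CAFS-CM group and 666560 to 701406 in the CAFR-CM group, and the read depth behind these sums is unknown. Between libraries of 1 group the log2 values differed with an SD of 0.217 to 0.220 (CAFS-CM) and of 0.283 to 0.294 (CAFR-CM). The epithelial keratins KRT8 and KRT18 were at means of 3587 and 2401 FPKM after CAFS-CM and of 3080 and 1943 FPKM after CAFR-CM, while EPCAM was at only 1.35 and 2.91 FPKM. Of 6 epithelial markers tested, 2 were higher and 2 lower after CAFR-CM, and 4 were lower with median-of-ratios factors. KRT8 was not called (limma-adjusted p = 0.0586). CDH1 rose from 3.11 to 5.83 FPKM (log2 fold change 0.73, limma-adjusted p = 0.00139), the only epithelial call kept in all 14 alternatives. The summed level of 10 fibroblast markers was 41.6 to 47.5 FPKM after CAFS-CM and 53.4 to 59.4 FPKM after CAFR-CM, of which 4 were tested and 1, COL1A1, was higher. COL1A1 and COL3A1 made up most of that sum, and THY1 was at 2 to 3.19 FPKM with overlapping groups. The other 7 were each under 1 FPKM. Of these, FAP was listed at 0 in all libraries and DCN and COL1A2 were at no more than 0.03 FPKM, while LUM (0.02 to 0.04 against 0.07 to 0.16 FPKM) and PDGFRA (0 against 0.01 to 0.07 FPKM) did not overlap and were higher after CAFR-CM, and PDGFRB reached 0.74 FPKM in 1 CAFR-CM library. Leukocyte markers summed to 2.7 to 2.78 FPKM after CAFS-CM and 2.48 to 3.54 FPKM after CAFR-CM. Endothelial markers summed to 1.51 to 1.63 FPKM and 2.09 to 2.5 FPKM, mostly through KDR (1.41 ± 0.0458 against 2.13 ± 0.230 FPKM, SD, n = 3, limma-adjusted p = 0.0245), whose call was lost in 8 of 14 alternatives, including without any CAFS-CM library and without CAFR-CM replicate 1 or 3. The part of these markers in the levels of the 9 enzymes was not tested.

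The sequence upstream of the start was compared between genes that rose and a gene that fell, since members that move together may carry the same letters there. Of the 9 members, 6 matched the RefSeq promoter table (GRCh38.p14), namely PHGDH, PSAT1, MTHFD1L and MTHFD2, which rose, and MTHFD1 and SHMT1. PSPH, SHMT2 and ALDH1L2 did not match. The 250 bases before the start were searched on both strands for the core of the C/EBP-ATF response element that ATF4 binds with a C/EBP partner (TGATGNAA), for the E-box bound by MYC and its relatives (CACGTG), for the GC box (GGGCGG) and for the CCAAT box (CCAAT). None of the 4 motifs contains another. In the lines that follow, 5′ to 3′ and all on the plus strand, capitals mark E-box and CCAAT matches on either strand. PHGDH lies at chr1:119711684-119711933, PSAT1 at chr9:78296875-78297124, MTHFD2 at chr2:74198365-74198614 and MTHFD1 at chr14:64388103-64388352. Those of PHGDH, MTHFD2 and MTHFD1 precede the RefSeq start but lie within the longer span that GENCODE v44 gives the gene.
PHGDH: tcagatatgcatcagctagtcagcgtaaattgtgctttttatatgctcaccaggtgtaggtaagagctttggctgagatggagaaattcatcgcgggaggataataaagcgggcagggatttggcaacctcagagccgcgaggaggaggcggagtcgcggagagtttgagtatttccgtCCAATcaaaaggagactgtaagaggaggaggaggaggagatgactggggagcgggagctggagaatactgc
PSAT1: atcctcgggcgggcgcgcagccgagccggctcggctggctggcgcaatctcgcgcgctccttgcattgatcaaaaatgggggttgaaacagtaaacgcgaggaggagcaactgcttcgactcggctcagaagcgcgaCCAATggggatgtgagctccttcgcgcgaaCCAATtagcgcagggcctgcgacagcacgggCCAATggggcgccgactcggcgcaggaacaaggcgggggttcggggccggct
MTHFD2: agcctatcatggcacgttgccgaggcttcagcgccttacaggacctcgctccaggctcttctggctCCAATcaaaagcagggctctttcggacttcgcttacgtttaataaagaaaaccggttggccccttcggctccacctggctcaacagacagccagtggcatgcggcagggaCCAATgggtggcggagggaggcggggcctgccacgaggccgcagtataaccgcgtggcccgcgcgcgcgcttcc
MTHFD1: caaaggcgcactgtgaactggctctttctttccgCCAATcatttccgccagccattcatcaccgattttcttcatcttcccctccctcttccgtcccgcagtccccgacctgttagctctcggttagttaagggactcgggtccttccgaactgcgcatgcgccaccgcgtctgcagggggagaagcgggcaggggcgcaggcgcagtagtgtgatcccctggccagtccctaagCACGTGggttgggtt

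A CCAAT box was found in all 6 matched members, in those that rose and in those that fell, and in 32.0% of 35116 windows of the table. PSAT1 had 3 of them, at -113, -83 and -52 from the start. An E-box was found in MTHFD1, at -15 to -10, and in MTHFD1L, and in 6.34% of all windows. The C/EBP-ATF core was found in MTHFD1L alone among the 6, and in 3.14% of all windows. MTHFD1L has 4 starts in the table, and the core lies in the windows of 2 of them. Members were counted as genes while the shares count windows, so a gene with 4 windows had more places for a match. The stretch at chr6:150866346-150866375 on the plus strand (bases -140 to -111 from the start at 150866486), with the core in capitals, is shown because it holds the only such match among the 6 members searched.
MTHFD1L: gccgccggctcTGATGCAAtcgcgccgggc

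A match is a description of letters and not of binding, and a window without a match says only that these letters are not in it. GC boxes were found in 3 of the 6 members and in 42.6% of all windows.

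PSAT1, the aminotransferase, had the largest log2 fold change of the 9 genes on the log2(FPKM + 1) scale. PSAT1 (Entrez gene 29968, chr9:78297125-78330093, plus strand, GENCODE v44 on GRCh38) was at 26.5, 26.8 and 27.8 FPKM after CAFS-CM and at 80.2, 88.5 and 87.9 FPKM after CAFR-CM. The lowest CAFR-CM library was 2.88 times the highest CAFS-CM library. The ratio of mean FPKM was 3.17, and the log2 fold change was 1.63 (SE, the standard error, 0.048, 95% interval 1.51 to 1.74, limma-adjusted p = 6.26e-06). Only 67 of the 23608 genes tested had a higher log2 fold change.

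PHGDH, the dehydrogenase that commits glycolytic carbon to serine, came next among the 3 steps. PHGDH (Entrez gene 26227, chr1:119648411-119744218, plus strand) was at 29.0, 27.7 and 30.1 FPKM after CAFS-CM and at 50.8, 57.6 and 54.1 FPKM after CAFR-CM. The groups did not overlap, and the mean rose 1.87-fold (log2 fold change 0.88, SE 0.056, limma-adjusted p = 0.000118). PSPH, the phosphatase of the last step (Entrez gene 5723, chr7:56011051-56051604, minus strand), was at 17.4, 17.3 and 17.1 FPKM after CAFS-CM and at 23.9, 25.7 and 25.4 FPKM after CAFR-CM. PSPH thus rose least of the 3, with a ratio of means of 1.45 and a log2 fold change of 0.51 (SE 0.043, limma-adjusted p = 0.000378). RefSeq lists 4 pseudogenes of PSAT1, 7 of MTHFD2 and 1 each of PSPH, SHMT1 and MTHFD1, and how the counting shared reads with such copies is not stated in the sources at hand.

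After CAFS-CM the PHGDH and PSAT1 levels overlapped, at means of 29.0 and 27.0 FPKM, and both lay above PSPH. After CAFR-CM PSAT1 was above PHGDH in every library, at a mean of 85.5 against 54.1 FPKM. The summed FPKM of the 3 genes was 71.9 to 75.1 after CAFS-CM and 155 to 172 after CAFR-CM.

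MTHFD2, the mitochondrial dehydrogenase and cyclohydrolase, was the member with the highest level after CAFR-CM. MTHFD2 (Entrez gene 10797, chr2:74186172-74217565, plus strand) was at 54.3, 60.0 and 58.1 FPKM after CAFS-CM and at 90.3, 94.99 and 100.4 FPKM after CAFR-CM. Every CAFR-CM library was at least 1.51 times as high as every CAFS-CM library. Its log2 fold change was 0.72 (SE 0.054, 95% interval 0.59 to 0.85, limma-adjusted p = 0.000239). The related gene MTHFD2L, whose product can carry out the same steps in mitochondria, was at a mean of 3.63 FPKM after CAFS-CM and of 3.54 FPKM after CAFR-CM, with overlapping groups and no call.

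SHMT2, which makes glycine and one-carbon units from serine inside mitochondria, was already the highest of the 9 after CAFS-CM. SHMT2 (Entrez gene 6472, chr12:57229573-57234935, plus strand) was at 62.7, 61.7 and 61.2 FPKM after CAFS-CM and at 76.5, 77.1 and 82.4 FPKM after CAFR-CM. It rose by a smaller factor than MTHFD2, 1.27-fold (log2 fold change 0.34, SE 0.039, limma-adjusted p = 0.00124). MTHFD1L, the synthetase that releases formate from the mitochondria (Entrez gene 25902, chr6:150865679-151101887, plus strand), was at 45.1, 45.5 and 46.7 FPKM after CAFS-CM and at 65.2, 57.9 and 59.6 FPKM after CAFR-CM. CAFR-CM replicate 1 stood highest, and the mean rose 1.33-fold (log2 fold change 0.40, SE 0.049, limma-adjusted p = 0.00166).

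ALDH1L2, the mitochondrial enzyme that oxidises the formyl group of folate to carbon dioxide, had by far the lowest level. ALDH1L2 (Entrez gene 160428, chr12:105019784-105107643, minus strand) was at 0.20, 0.32 and 0.35 FPKM after CAFS-CM and at 1.47, 1.50 and 1.51 FPKM after CAFR-CM. Its ratio of means of 5.15 was the highest of the members, but it rests on CAFS-CM values near the filter of 0.1 FPKM, whose coefficient of variation was 27.4%. On the log2(FPKM + 1) scale the change was 0.95 (SE 0.082, limma-adjusted p = 0.000402), and on the log2(FPKM + 0.1) scale it was 2.05. The cytosolic relative ALDH1L1 did not pass the filter, with 0 to 0.03 FPKM after CAFS-CM and 0, 0.02 and 0.38 FPKM after CAFR-CM.

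MTHFD1, which carries the dehydrogenase, cyclohydrolase and synthetase activities of the cytosol in 1 protein, fell. MTHFD1 (Entrez gene 4522, chr14:64388031-64463457, plus strand) was at 47.0, 47.2 and 49.2 FPKM after CAFS-CM and at 34.3, 36.8 and 36.2 FPKM after CAFR-CM. All 3 CAFR-CM libraries lay below all 3 CAFS-CM libraries, with a ratio of means of 0.748 (log2 fold change -0.41, SE 0.041, 95% interval -0.51 to -0.31, limma-adjusted p = 0.000716). Only 4.28% of the genes tested had a lower log2 fold change.

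SHMT1, the cytosolic serine hydroxymethyltransferase (Entrez gene 6470, chr17:18327860-18363563, minus strand), was at 14.98, 15.2 and 14.9 FPKM after CAFS-CM and at 13.5, 13.2 and 13.6 FPKM after CAFR-CM. The groups did not overlap, but the distance between them was small, with a ratio of means of 0.893. The log2 fold change was -0.15 (SE 0.041, limma-adjusted p = 0.0337). The sign was the same in all 14 alternatives, with values from -0.25 to -0.14. In 10 of them the adjusted p rose to between 0.0505 and 0.11 (limma), with 0.0912, 0.11 and 0.0964 without CAFS-CM replicates 1, 2 and 3 in turn and 0.0556, 0.0817 and 0.0675 without CAFR-CM replicates 1, 2 and 3 in turn.

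**Figure D2:**
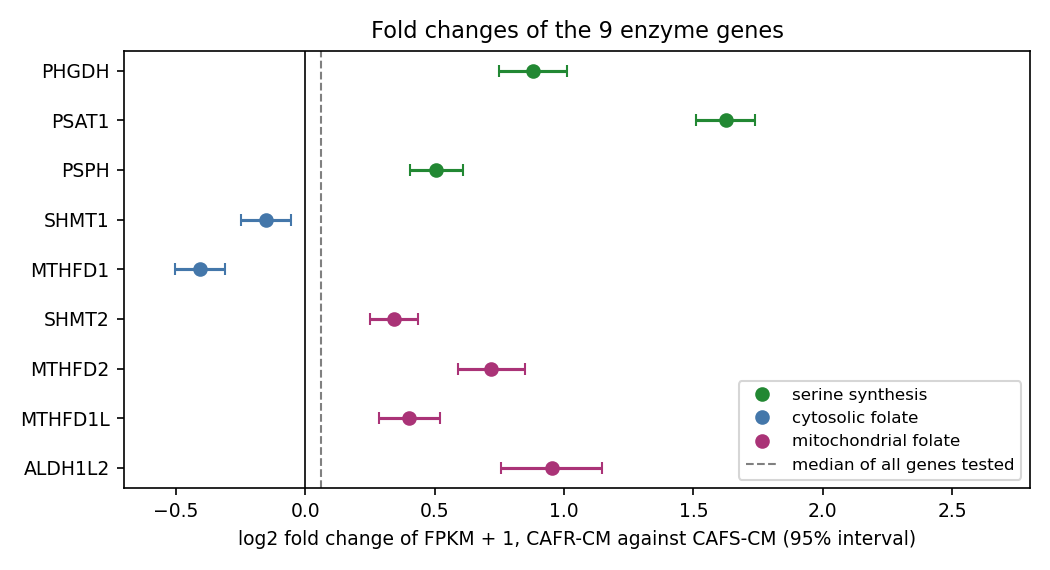
Log2 fold change of FPKM + 1 after CAFR-CM against CAFS-CM for each of the 9 genes, with 95% intervals from limma and colours for the 3 roles. The intervals of the 7 serine synthesis and mitochondrial genes lie above 0 and those of SHMT1 and MTHFD1 below 0, and the dashed line marks the median of all genes tested, 0.06.

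Some exons of the members are shared with genes on the other strand. In GENCODE v44, SLC4A5 covers 11.6% of the exonic bases of MTHFD2 but was at only 0.49 and 0.50 FPKM in the 2 groups. SMCR8 covers 2.81% of those of SHMT1 and fell as well, from a mean of 20.6 to 17.9 FPKM (log2 fold change -0.19, limma-adjusted p = 0.0307). NDUFA4L2 covers 0.719% of those of SHMT2 and rose from 0.317 to 3.36 FPKM, and ZBTB25 covers 1.03% of those of MTHFD1 and rose from 5.11 to 9.17 FPKM. Other genes on the opposite strand, not analysed here, cover up to 8.96% (a lncRNA at MTHFD1). The libraries mark the strand, but whether the counting used it is not stated in the sources at hand, and the part of these genes in the results was not tested.

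The comparison of the compartments was also made within each library, where differences in library total cancel. The ratio of SHMT2 to SHMT1 was 4.19, 4.07 and 4.10 after CAFS-CM and 5.68, 5.82 and 6.08 after CAFR-CM. The ratio of MTHFD1L to MTHFD1 was 0.960, 0.965 and 0.950 after CAFS-CM, so that both levels were nearly alike, and 1.90, 1.58 and 1.65 after CAFR-CM. The ratio of MTHFD2 to MTHFD1 was 1.16, 1.27 and 1.18 after CAFS-CM and 2.63, 2.58 and 2.77 after CAFR-CM. All 3 ratios were higher in every CAFR-CM library than in any CAFS-CM library. The geometric mean ratios after CAFR-CM were 1.42, 1.77 and 2.21 times those after CAFS-CM, with differences in mean log2 ratio of 0.51, 0.83 and 1.15. An exact two-sided permutation test gave p = 0.1 for each pair (Benjamini-Hochberg adjusted p = 0.1 over the 3 pairs), which is the smallest value that 3 against 3 libraries allow, so that none passed the threshold, and 2 of the pairs share MTHFD1.

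The 4 mitochondrial genes summed to 162, 168 and 166 FPKM after CAFS-CM and to 233, 232 and 244.0 FPKM after CAFR-CM. The 2 cytosolic genes summed to 62.0, 62.4 and 64.1 FPKM and to 47.8, 50.02 and 49.8 FPKM. The mitochondrial sum was thus 2.60 to 2.69 times the cytosolic sum after CAFS-CM and 4.63 to 4.90 times after CAFR-CM. On the log2(FPKM + 1) scale, the median change of the mitochondrial genes exceeded that of the cytosolic genes by 0.84.

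**Figure D3:**
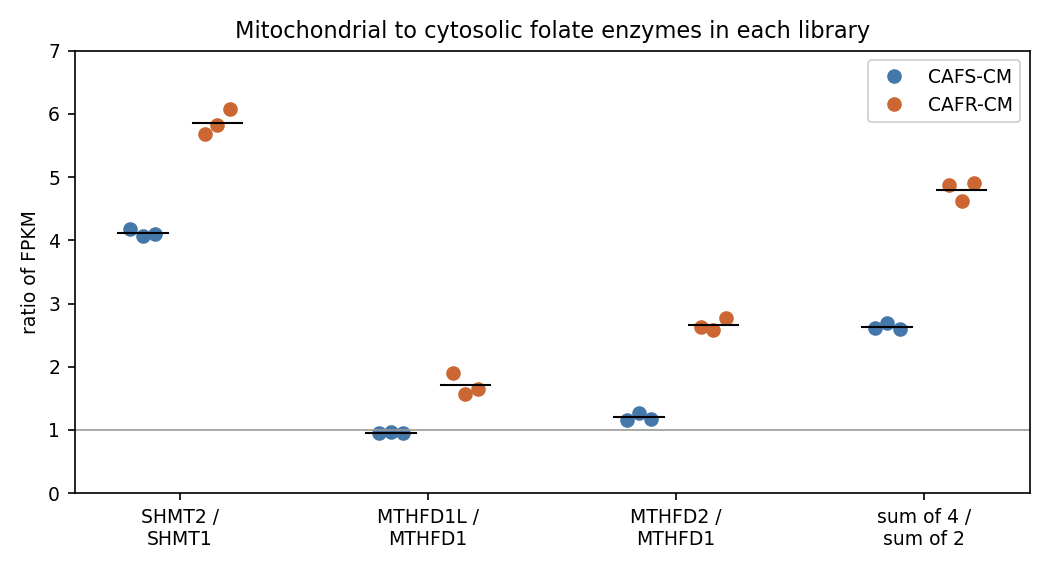
Ratio of FPKM of mitochondrial to cytosolic folate enzymes in each library, for 3 pairs of genes and for the sum of the 4 mitochondrial over the sum of the 2 cytosolic genes, with black lines at the group means and a grey line at a ratio of 1. In each of the 4 columns the CAFR-CM points (orange) lie above the CAFS-CM points (blue).

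The order of the members by level changed with the medium. After CAFS-CM it ran from SHMT2 through MTHFD2, MTHFD1, MTHFD1L, PHGDH, PSAT1, PSPH and SHMT1 to ALDH1L2, and PHGDH and PSAT1 were the only neighbours whose libraries overlapped. After CAFR-CM it ran from MTHFD2 through PSAT1, SHMT2, MTHFD1L, PHGDH, MTHFD1, PSPH and SHMT1 to ALDH1L2, and PSAT1 and SHMT2 were the only neighbours that overlapped. PSAT1 moved from place 6 to place 2 and MTHFD1 from place 3 to place 6.

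Genes whose profile over the 6 libraries was most like that of a member were sought among 13629 genes with an Entrez number and a mean of at least 1 FPKM, by the Euclidean distance of centred log2(FPKM + 1) values. For PSAT1 these were SDC4, a cell surface proteoglycan (distance 0.0566, from a mean of 30.03 to 92.7 FPKM), HK2, the hexokinase of the first glycolytic step (0.0616, from 7.52 to 24.9 FPKM), and ULBP1, a ligand of an activating receptor of natural killer cells (0.0695, from 0.79 to 4.42 FPKM). For MTHFD1 they were ARHGAP24 (0.0529), EIF2B5, a subunit of the exchange factor of translation initiation (0.0535), and BRAT1 (0.054), all lower after CAFR-CM. For ALDH1L2 they were NQO1, a quinone reductase (0.0892), CFD (0.0899) and LGALS3BP (0.112), which were all at far higher levels than ALDH1L2 itself. NQO1 went from a mean of 38.9 to 76.04 FPKM, CFD from 6.67 to 14.05 FPKM and LGALS3BP from 14.62 to 28.1 FPKM. In ratio of means these changes were smaller than the 5.15 of ALDH1L2, which the log2(FPKM + 1) scale understates. The distances are a description over 6 libraries of 2 groups and carry no test.

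The genes around the 9 enzymes did not all move as they did. Of 49 other genes tested in 7 lists of folate, glycine, methionine, nucleotide and serine metabolism, 9 were higher and 10 lower after CAFR-CM at an adjusted p under 0.05 (limma). Their median log2 fold change was -0.05, beside 0.06 over all genes tested. In shares this is 18.4% higher and 20.4% lower, beside 15.1% and 11.1% of all genes tested. Among genes with a mean of at least 1 FPKM, 36.7% were called in either direction.

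Thymidylate and purine synthesis held 4 of the 10 lower calls. In the list of thymidylate and purine synthesis 4 of 7 genes were lower and none was higher, with a median log2 fold change of -0.17, while with cyclic loess 2 were lower and 1 was higher. TYMS, which turns deoxyuridylate into thymidylate with a folate-bound carbon, was at 189, 181 and 181 FPKM after CAFS-CM and at 111, 115 and 110.4 FPKM after CAFR-CM. No CAFR-CM library came near the CAFS-CM range, and the log2 fold change was -0.70 (limma-adjusted p = 4.84e-05). PFAS, an enzyme of purine synthesis, fell from 34.7 ± 0.427 to 23.6 ± 0.888 FPKM (SD, n = 3, log2 fold change -0.53, limma-adjusted p = 0.000241). GART and ADSL, of the same pathway, had log2 fold changes of -0.19 and -0.17 (limma-adjusted p = 0.0224 and 0.035), and both calls were lost without any 1 of the CAFS-CM libraries, which leaves 2 of 7 genes lower.

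Of the 9 other folate enzymes tested, 7 were not called, and the median log2 fold change was -0.04. Of 3 folate carriers tested, 1 was lower and none higher, and 2 were lower with median-of-ratios factors. SLC19A1, the reduced folate carrier of the plasma membrane, fell from 24.2 ± 0.965 to 19.3 ± 0.596 FPKM (SD, n = 3, log2 fold change -0.31, limma-adjusted p = 0.00341). SLC25A32, the carrier that takes folate into mitochondria, was at 15.5 ± 0.311 and 14.1 ± 1.23 FPKM and was not called, except with median-of-ratios factors (limma-adjusted p = 0.0285).

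Proliferation markers moved in the same direction as the cytosolic folate genes MTHFD1 and SHMT1 and as TYMS. All 6 tested were lower after CAFR-CM, beside 11.1% of all genes tested, with a median log2 fold change of -0.52. With cyclic loess 5 were lower. PCNA, the clamp of DNA polymerase, was at 157, 158 and 160 FPKM after CAFS-CM and at 96.8, 103.0 and 104 FPKM after CAFR-CM (log2 fold change -0.64, limma-adjusted p = 9.45e-05). MCM2, MKI67 and BUB1 had log2 fold changes of -0.64, -0.55 and -0.49. Their summed level was 486 to 503 FPKM after CAFS-CM and 335 to 342 FPKM after CAFR-CM, and its part in the lower levels of MTHFD1 and SHMT1 was not tested.

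Carriers of serine and glycine rose in part. Of 10 tested, 5 were higher and 1 lower, with a median log2 fold change of 0.12. With median-of-ratios factors 5 were higher and 4 lower. SLC7A10, an exchanger of small neutral amino acids, was at 0.45, 0.64 and 0.43 FPKM after CAFS-CM and at 2.72, 2.89 and 2.77 FPKM after CAFR-CM (log2 fold change 1.33, limma-adjusted p = 0.000162). The groups were far apart, though at a low level. SLC6A9, a glycine transporter, rose from 4.89 ± 0.340 to 10.6 ± 1.23 FPKM (SD, n = 3), with a log2 fold change of 0.98 (limma-adjusted p = 0.000558). SLC1A4, an exchanger of serine and alanine, rose from 9.95 ± 0.405 to 18.4 ± 0.747 FPKM (SD, n = 3), with a log2 fold change of 0.83 (limma-adjusted p = 0.000123). SLC38A1, at a much higher level of 98.4 and 122 FPKM, had a log2 fold change of 0.31. The 1 lower call, SFXN3, was lost without any CAFS-CM library and without CAFR-CM replicate 1 or 3.

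In the methionine cycle and transsulfuration 3 of 9 genes tested were higher and 2 lower, with a median log2 fold change of 0.33. That median is the value of BHMT, a gene near the filter with overlapping groups that was not called (limma-adjusted p = 0.116). BHMT was at 0.07 to 0.20 FPKM after CAFS-CM and at 0.20 to 0.71 FPKM after CAFR-CM. CBS, which condenses serine with homocysteine and so draws on the product of the 3-step pathway, was at 17.0, 16.1 and 18.1 FPKM after CAFS-CM and at 41.4, 44.5 and 43.4 FPKM after CAFR-CM. Every CAFR-CM library was above every CAFS-CM library (log2 fold change 1.29, limma-adjusted p = 2.31e-05). Its value is uncertain because CBSL, a near-identical copy, was listed at 14.5 and 33.9 FPKM and the reads may have been split between them. CTH, the next enzyme, rose from 1.34 ± 0.050 to 2.26 ± 0.045 FPKM (SD, n = 3), and MTRR, the reductase that reactivates methionine synthase, fell from 16.8 ± 0.982 to 12.0 ± 1.05 FPKM (SD, n = 3, log2 fold change -0.45, limma-adjusted p = 0.00545). MTR, the methionine synthase itself, had a log2 fold change of 0.36 (limma-adjusted p = 0.00304).

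The glycine cleavage system, which breaks down the glycine that SHMT2 leaves, had 1 of 4 genes lower and none higher. That gene, GCSH, was at 17.7 ± 1.03 and 14.7 ± 0.651 FPKM (SD, n = 3, limma-adjusted p = 0.0214), and its call was lost without CAFS-CM replicate 2 or 3 and without CAFR-CM replicate 2 or 3. AMT, another of the 4, was at 0.707 ± 0.265 and 1.35 ± 0.422 FPKM (SD, n = 3) with overlapping groups and was not called, but was higher without CAFR-CM replicate 1 (limma-adjusted p = 0.0299). Of 7 enzymes that use serine for lipids or break it down, 0 were called by limma at an adjusted p under 0.05, and 1 of them, SPTLC1, had an unadjusted p of 0.02. Without CAFS-CM replicate 1 or without CAFR-CM replicate 3 the count was 1 lower, and with median-of-ratios factors it was 3 lower.

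Among the regulators known to act on these genes, the transcription factor ATF4 was at 120, 122 and 121 FPKM after CAFS-CM and at 208, 209 and 220.4 FPKM after CAFR-CM. The groups did not overlap, and the log2 fold change was 0.81 (limma-adjusted p = 3.05e-05). DDIT3, a C/EBP family factor induced in the same response, rose from 11.7 ± 0.195 to 31.9 ± 1.53 FPKM (SD, n = 3, log2 fold change 1.38, limma-adjusted p = 1.1e-05). KDM4C, a histone demethylase reported to act on serine pathway genes, had a log2 fold change of 0.54 (limma-adjusted p = 0.0114), and MYC one of -0.31 (limma-adjusted p = 0.0106). Of 10 regulators tested, 4 were higher and 2 lower, at a median log2 fold change of -0.01, while the call of 1 of the 4, NFE2L2, was lost in 11 of 14 alternatives.

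Of 10 other genes known to respond to ATF4, 9 were higher after CAFR-CM and none lower, with a median log2 fold change of 1.2. In shares 90.0% were higher, beside 15.1% of all genes tested. The list was chosen with earlier results of these data known, so the share is a description and not a test. The call of 1 of the 9, CEBPB (limma-adjusted p = 0.0408), was lost in 9 of 14 alternatives. With median-of-ratios factors or without CAFR-CM replicate 1, 1 was lower. ASNS, the asparagine synthetase, was at 12.6, 13.7 and 12.96 FPKM after CAFS-CM and at 50.3, 50.3 and 50.7 FPKM after CAFR-CM (log2 fold change 1.87, limma-adjusted p = 2e-06). The groups lay far apart. DDIT4 and CHAC1 had log2 fold changes of 2.36 and 2.35, and TRIB3 one of 1.71. ATF4 protein was not measured, and its part in the levels of the 9 enzymes was not tested.

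**Figure D4:**
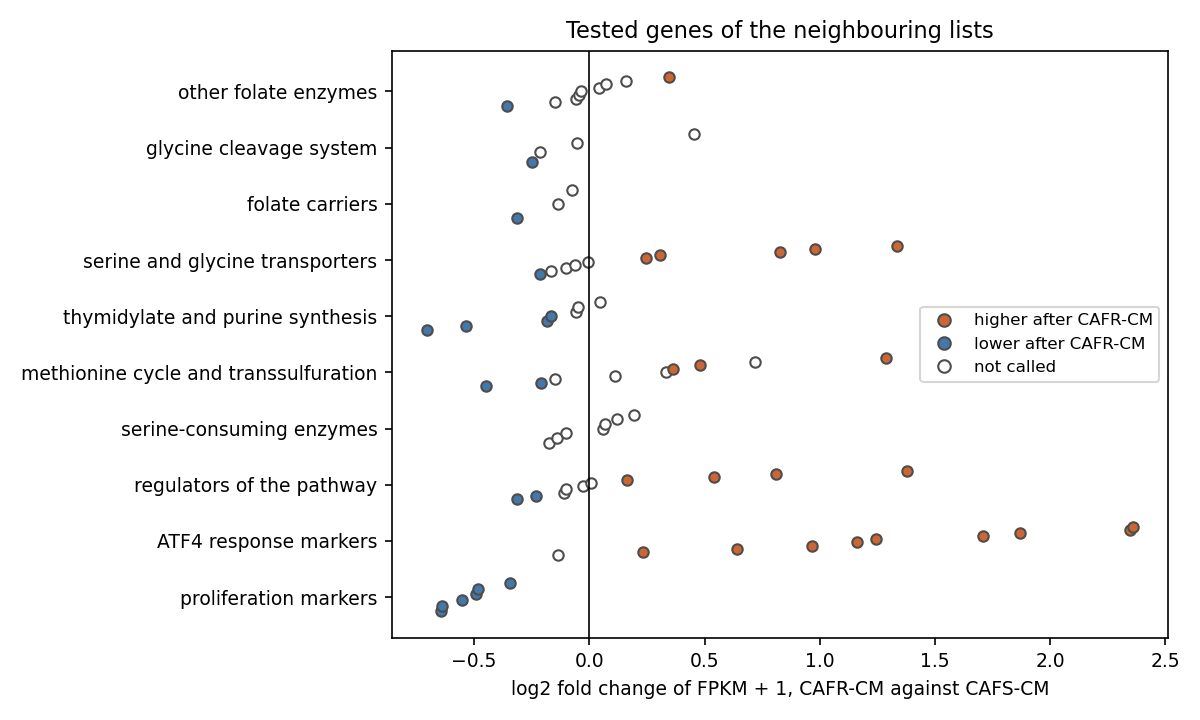
Log2 fold change of FPKM + 1 after CAFR-CM against CAFS-CM for each tested gene of 10 other lists, 1 point per gene (small vertical shifts only separate points), filled in orange or blue where the gene was higher or lower at an adjusted p under 0.05. All 6 proliferation markers lie below 0 and 9 of 10 genes that respond to ATF4 lie above it, the 3 folate carriers all lie below 0, and the other metabolic lists lie on both sides.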

How the data were processed

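RNA of 6 Panc-1 samples was depleted of ribosomal RNA and sequenced. The authors deposited 1 table of FPKM per gene, made, per the labels, with tools that include HISAT2 2.0.4, Bowtie2 2.2.5, RSEM 1.2.12 and DESeq2 1.4.5 on GRCh38.p13. Of its 97767 rows, 55272 are circular RNAs with no value for these libraries. Raw counts were not analysed here, so the read depth is unknown and no counting interval is given.

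Groups came from the sample titles. The study calls the 3 libraries of a group biological replicates, and the labels do not say what was repeated. Genes above 0.1 FPKM in at least 3 libraries were tested on log2(FPKM + 1), which understates changes of low genes, with limma 3.58.1 (R 4.3.3, empirical Bayes with trend). P-values were adjusted over all genes tested by Benjamini-Hochberg, and the procedure was tested on simulated data. DESeq2, which the labels name, needs counts and could not be run on FPKM. Ratios within libraries were compared by exact two-sided permutation. Positions came from GENCODE v44 and promoters from RefSeq.

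The members and lists were chosen with earlier results of these data known. All 9 members are named with every value, and from each other list up to 4 tested genes with a mean of at least 1 FPKM and the largest absolute log2 fold change, beside 3 genes most like 1 member of each role. MTHFD2L, ALDH1L1, MTR, BHMT, SFXN3, NFE2L2, CEBPB, KRT8, FAP, DCN, COL1A2, LUM, PDGFRA, PDGFRB, CBSL and the genes on opposite strands were named outside that rule, after their values were seen. Some genes that the rule names are not reported here. Alternatives changed the pseudocount (0.1), the filter (none, or a mean of at least 1 FPKM), the scaling (equal FPKM totals, median-of-ratios factors, cyclic loess), the variance model, the replicate block and the libraries, left out in turn.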

Additional observations from a re-analysis of the deposited data

How the results depend on the processing

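The 7 higher calls among the 9 enzymes held in the alternatives that tested them, and no log2 fold change of a member changed sign in any of 14 alternatives. ALDH1L2 was not tested where a mean of at least 1 FPKM was required. Of the 2 lower calls 1, that of MTHFD1, held throughout, so that 1 member was lower with equal FPKM totals, with cyclic loess, with the replicate block and with empirical Bayes without trend, and 1 (lowest and highest value) when single libraries were left out. The adjusted p of SHMT1 in these 4 settings was 0.0505, 0.0525, 0.0812 and 0.0572 (limma). The excess of the mitochondrial over the cytosolic median log2 fold change, 0.84, was 0.68 with a mean of at least 1 FPKM, where ALDH1L2 drops out, 0.89 with cyclic loess (the cause was not tested) and 0.82 to 0.86 without single libraries. Over all genes, 3560 were higher and 2626 lower. Median-of-ratios factors gave 3979 lower genes, and the cause was not tested. Leaving out single libraries gave 2330 to 3328 higher and 1799 to 2405 lower genes, with the fewest higher without CAFS-CM replicate 2. The deviations of same-numbered libraries from their group means were hardly correlated (0.02, -0.03 and 0.06). These values cannot say whether such libraries were made or handled together. The replicate block gave 2891 higher and 2340 lower genes. Depth is unknown, so its limit on each gene could not be measured.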
